A study of Mus musculus with 18 samples.

Results

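The comparison followed the ovary of hybrid mice with excess luteinizing hormone (LH) between 2 ages, setting the ovary of 5 months, which the labels call a luteoma, against the cystic ovary of 2 months. Its members were chosen by strain, genotype and age in the labels, and they are 4 of the 18 arrays of the series, 1 luteoma and 1 cystic array on each of 2 chip types, A and B. All 4 carried RNA of LHCTP transgenic ovaries from F1 hybrids of CF-1 and C57BL/6 mice. Wild-type hybrid ovaries of 5 and 2 months, 1 array each per chip type, gave the change over the same 3 months without the transgene. The other 10 arrays held CF-1 ovaries, namely a transgenic luteoma after human chorionic gonadotropin (hCG) and a transgenic granulosa cell tumour at 5 months, a transgenic cystic ovary at 2 months, and wild types of 5 and 2 months. The chip B array of the tumour carries an age of 2 months in its description and of 5 months in its title and source, and was taken as 5 months. The labels name no second animal for any condition and no pooling, so no difference below could be tested, and each rests on 1 array a side. The whole ovary was measured in every case, so that fewer cells of a type and less RNA per cell cannot be told apart.

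LH is a pituitary hormone that acts on theca cells and on mature granulosa cells, drives ovulation and turns the emptied follicle into a corpus luteum, whose cells take up cholesterol and make progesterone. The LHCTP transgene, in its published form, is expressed from a gonadotropin alpha-subunit promoter in the pituitary and codes for an LH beta chain lengthened with the carboxyl-terminal peptide of hCG, which prolongs the hormone's life in blood. A luteoma is a growth of luteinized, steroid-making cells, while follicles hold dividing granulosa cells around an oocyte.

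Levels are scaled intensities in arbitrary units, comparable between arrays for 1 probe set but not between probe sets. Values under a floor, 183.8 units for chip A and 290.7 for chip B, were raised to it before log2 differences were taken, always as luteoma minus cystic. A fold against an array under the floor is given as at least that size. Detection was set at 2 floors, and a probe set was called when it differed at least 3-fold with the brighter array at the detection limit. Of 6408 probe sets tested, 104 were called higher in the luteoma (1.62%) and 100 were called lower (1.56%). In the 104 higher ones the cystic array lay under the floor in 45 and under the detection limit in 79. In the 100 lower ones the luteoma array lay under the floor in 42 and under the detection limit in 73. The pair of hybrid wild types gave 31 probe sets higher at 5 months (0.484%) and 42 lower (0.655%). The pair of CF-1 wild types gave 120 higher at 5 months (1.87%) and 71 lower (1.11%). That CF-1 pair, like luteoma and cystic ovary, differs in the control profile described below, while the hybrid wild types do not. The standard deviation of the log2 difference over all probe sets was 0.67 between luteoma and cystic ovary and 0.49 between the hybrid wild types. The called probe sets included 69 named genes on the higher side and 61 on the lower side. Their threshold lay in a continuous range, with the smallest fold called at 3.0013 and the largest fold not called at 2.9978 on the higher side.

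Features of the arrays moved with the comparison and come before the genes. The luteoma array shared a control profile with the CF-1 tumour and the CF-1 wild type of 5 months, while the cystic array had the other profile. The opposite-strand probe set of the bacterial control BioDn read 812 units on the luteoma array of chip A against 194 units on the cystic array, and on chip B 719 against 156 units. Across the chip A arrays this probe set read 768 to 812 units in the 3 arrays of the profile and 194 to 387 units in the other 6. No label names a batch, and for this pair the profile and the stage cannot be told apart. Of the 104 higher probe sets, 44 (42.3%) had all 3 arrays of the profile above the other 6, against 8.35% of all tested. Of the 100 lower ones, 33 (33.0%) had all 3 below, against 10.1% of all tested. The luteoma lay at least 2-fold above both of the other arrays of its profile in 17 of the 104 (1.94% of all tested) and at least 2-fold below both in 14 of the 100 (1.51% of all tested). Calling already placed the luteoma array at least 3-fold beyond the cystic array. Larger shares than over all tested probe sets were therefore built into these counts, and the part of the profile was not tested.

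Brightness also differed. All 7 spiked-in bacterial controls detected were lower in the luteoma after scaling, with a median log2 difference of -0.26 on chip A and -0.75 on chip B. Probe sets at or above 20000 units in the cystic ovary had a median of -0.58 on chip A (82 probe sets) and -0.96 on chip B (66 probe sets). Choosing them by the cystic array itself pushes these medians down. In the brightest of 10 groups by mean level the median was -0.16 on chip A and -0.32 on chip B. Gapdh, detected on both chips as a control for RNA quality, had a ratio of its 3' to its 5' probe set of 0.985 in the luteoma and 0.971 in the cystic ovary on chip A, and 0.938 and 1.05 on chip B. The only repeat measurements were 13 probe sets for mouse transcripts or repeats present on both chips, and 11 of them had the same sign on both. Their log2 difference disagreed between the chips with a standard deviation of 0.43 and by at most 1.43.

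The genes in which the luteoma stood furthest above every other array were Ptgds, Serpina6, Wnt4, Snap91, Sdc4, Rxrb and Ptgr1. These 7 named genes were among 9 called probe sets at least 2-fold above all of the other 8 arrays. Over all probe sets tested, 15 met that 2-fold distance (0.234%). In Ptgds, Serpina6, Wnt4 and Snap91 the cystic ovary already lay above both hybrid wild types, and the luteoma lay higher still.

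The annotated start regions of 3 of these genes, with that of Ihh, a follicle gene that was lower in the luteoma, are printed to show what lies upstream of genes that moved in opposite directions. They come from RefSeq, build GRCm38.p6, and run from 250 bases before to 50 bases after the start of transcription, 5′ to 3′ on the strand of the gene. Capitals mark matches on either strand to the GC box GGGCGG and to the sterol element TCACCCCAC. Wnt4 lies on the plus strand at chr4:137277385-137277684, Ptgds on the minus strand at chr2:25469700-25469999, Snap91 on the minus strand at chr9:86880659-86880958 and Ihh on the minus strand at chr1:74951623-74951922.
Wnt4: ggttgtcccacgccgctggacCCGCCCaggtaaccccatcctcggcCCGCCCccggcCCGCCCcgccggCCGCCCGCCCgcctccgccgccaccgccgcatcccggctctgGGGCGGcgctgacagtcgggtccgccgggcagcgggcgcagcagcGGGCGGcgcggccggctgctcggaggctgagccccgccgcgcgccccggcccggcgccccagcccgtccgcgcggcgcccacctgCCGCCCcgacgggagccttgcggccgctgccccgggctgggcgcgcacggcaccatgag
Ptgds: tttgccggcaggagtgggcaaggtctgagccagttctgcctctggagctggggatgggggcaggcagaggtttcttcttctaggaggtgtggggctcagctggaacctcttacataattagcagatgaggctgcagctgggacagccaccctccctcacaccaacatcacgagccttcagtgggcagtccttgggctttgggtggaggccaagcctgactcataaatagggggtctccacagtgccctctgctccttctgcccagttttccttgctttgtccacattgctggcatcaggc
Snap91: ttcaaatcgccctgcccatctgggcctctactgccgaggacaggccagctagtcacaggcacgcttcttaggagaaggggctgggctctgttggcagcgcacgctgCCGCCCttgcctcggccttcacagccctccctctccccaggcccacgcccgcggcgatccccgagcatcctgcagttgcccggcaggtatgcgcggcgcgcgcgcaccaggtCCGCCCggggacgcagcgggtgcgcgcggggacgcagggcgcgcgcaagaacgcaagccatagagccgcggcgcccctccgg
Ihh: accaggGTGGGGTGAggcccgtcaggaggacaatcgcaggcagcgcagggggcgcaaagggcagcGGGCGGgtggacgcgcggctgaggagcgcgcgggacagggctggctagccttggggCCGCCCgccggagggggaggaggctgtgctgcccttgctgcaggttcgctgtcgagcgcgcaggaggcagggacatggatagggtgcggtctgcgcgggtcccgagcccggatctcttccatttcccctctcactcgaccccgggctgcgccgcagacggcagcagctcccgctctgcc
The Wnt4 window held 8 GC boxes, 2 of them overlapping, that of Snap91 held 2, that of Ihh held 2, and that of Ptgds held 0. A GC box occurs in 35.7% of the 32851 mouse windows of the same length. The letters of the sterol element occurred once, in Ihh, and occur in 0.551% of all windows. The SF-1 element CAAGGTCA (1.56% of all windows), the cAMP response element TGACGTCA (1.79%) and the TATA box TATAAA (13.6%) were not found in these 4 windows, which says only that these letters are absent there.

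Ptgds encodes lipocalin-type prostaglandin D synthase. It read 14122 units in the luteoma and 4392 units in the cystic ovary, against 76.8 and 669 units in the hybrid wild types of 5 and 2 months. In CF-1 ovaries it read 1653 units in the hCG luteoma, 1317 in the cystic ovary, 773 and 61.3 in the wild types of 5 and 2 months, and a value below 0 in the tumour. The luteoma was 3.22-fold above the cystic ovary, which was the next highest of the 9 arrays, and at least 76.8-fold above the wild type of its age.

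Serpina6 encodes corticosteroid-binding globulin, a carrier of glucocorticoids and progesterone. It read 7759 units in the luteoma and 1648 units in the cystic ovary, a 4.71-fold difference, and lay under the floor in both hybrid wild types at 31.4 and 82.1 units. Outside the hybrid transgenics it passed the floor only in the hCG luteoma, at 513 units, and in the CF-1 cystic ovary, at 1135 units.

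Wnt4 encodes a secreted ligand that female gonad development and follicle growth depend on. On the called probe set it read 4550 units in the luteoma and 1516 units in the cystic ovary, against 388 and 288 units in the wild types. The difference of 3.0013-fold is the smallest one called on the higher side. A second probe set for the same transcript read 3574 and 1977 units, against 311 and 602 units in the wild types, a log2 difference of 0.85. Both probe sets therefore gave the luteoma the highest level of the hybrid ovaries, with sizes on either side of the threshold. The CF-1 cystic ovary read 2007 units on the called probe set and the hCG luteoma 752 units.

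Snap91, a clathrin assembly protein best known from nerve terminals, read 1929 units in the luteoma and 584 units in the cystic ovary. Both hybrid wild types lay under the floor, at 46.9 and 74.4 units. Its difference was 3.30-fold, and the luteoma was at least 10.5-fold above the wild type of its age.

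In Sdc4, Rxrb and Ptgr1 the cystic ovary lay within or close to the range of the hybrid wild types, and the luteoma was the array that stood apart. Sdc4, a cell surface heparan sulfate proteoglycan, read 2227 units in the luteoma and 449 units in the cystic ovary, against 566 and 398 units in the wild types, a 4.95-fold difference. A second, brighter Sdc4 probe set read 7040 and 5484 units, against 6413 and 4011 units, a log2 difference of 0.36. Rxrb, a nuclear receptor that pairs with others, read 2778 and 808 units, against 122 and 1153 units in the wild types. Ptgr1, which inactivates prostaglandins and leukotriene B4, read 2150 and 640 units, against 422 and 587 units in the wild types, and the luteoma stood 2.07-fold above the next array, while a second probe set gave a log2 difference of 0.36 beside 1.75. Hp, the hemoglobin-binding haptoglobin, read 3623 units in the luteoma and 969 units in the cystic ovary, against 1066 and 2216 units in the wild types, and was also highest in the luteoma of all 9 arrays. Gsta3, a glutathione transferase that also isomerises steroid precursors in humans, read 6178 and 2200 units, against 823 and 760 units in the wild types, a log2 difference of 1.49 that did not reach the threshold.

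**Figure D1:**
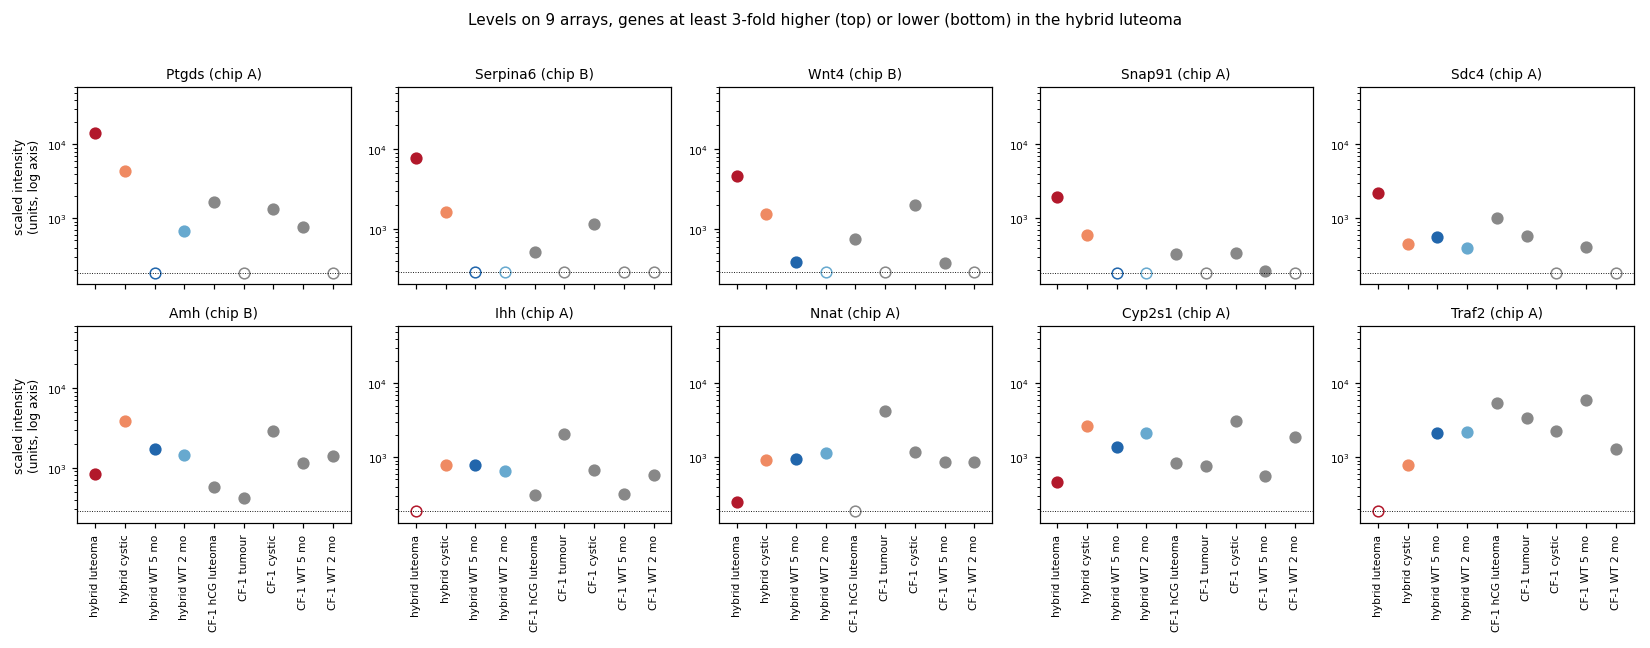
Scaled intensity (log axis) of 10 genes on the 9 arrays of their chip type, 1 point per array, with open points at the floor (dotted line) for arrays below it. In the upper row the hybrid luteoma (dark red) is the highest array for all 5 genes on the probe sets plotted, and in the lower row Ihh and Traf2 lie under the floor there.

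Other genes on the higher side had the luteoma together with the other arrays of its control profile. Among the 20 largest differences of named genes, Cd300c2 (a myeloid receptor), Col4a4 (a basement membrane collagen chain), Mphosph9, Hps4, Dusp11, Krt17 and Ctss had all 3 arrays of the profile above the other 6. Cd300c2 read 1462 units in the luteoma against a value below 0 in the cystic ovary, and 1341 and 1693 units in the CF-1 tumour and the CF-1 wild type of 5 months. Col4a4 read 1996 against 203 units, and 1084 and 1679 units in those 2 arrays. Krt17 had a second probe set with the opposite sign, at -0.64 beside 2.20, and that of Dusp11 gave 0.19 beside 2.58. In a further group the cystic array was the one that stood apart. Cirbp, a cold-inducible RNA-binding protein with the largest difference of the named genes on the higher side, at least 8.33-fold, read 1531 units in the luteoma and a value below 0 in the cystic ovary, against 1433 and 700 units in the wild types. Necap2, Inpp5j, Tmc6, Dusp11, Krt17 and Plac8, like Cirbp, were at least 2-fold lower in the cystic ovary than in each of the other 8 arrays, as were 0.203% of all probe sets tested, and a second probe set of Necap2 gave 0.00 beside 2.55. Position against the hybrid wild types was counted for all called probe sets. On the higher side the luteoma alone lay at least 2-fold outside the range of the wild types in 42 of 104, the cystic ovary alone in 21, both in 5 and neither in 36. On the lower side the counts were 45 of 100, 22, 3 and 30. Calling put the 2 arrays at least 3-fold apart, so a place outside that range was partly built in. The same count was not taken over all tested probe sets. By another measure, 14.8% of all tested differed at least 2-fold between the luteoma and the wild type of its age. For the cystic ovary and the wild type of its age it was 8.79%. The counts therefore do not show which array set the differences.

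Amh, Ihh and Nnat were the granulosa and follicle genes past the 3-fold rule, all lower in the luteoma. Of 17 granulosa and follicle genes measured, 3 were called, and the median difference was -0.60 on the log2 scale. In all 9 were at least 1.5-fold lower and 2 at least 1.5-fold higher. Over all 3916 named genes 15.9% were at least 1.5-fold lower, 14.4% at least 1.5-fold higher, and the median was -0.01. The same list had a median of 0.15 between the wild types of 5 and 2 months. With intensities as deposited, or set to the level of the spiked-in controls, its median was 0.053 and 0.036. The sign of the list as a whole thus depends on the scaling. That of the 3 called genes did not change, but genes chosen for at least 3-fold differences could hardly change sign under such shifts.

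Amh, the anti-Müllerian hormone made by granulosa cells of growing follicles, read 837 units in the luteoma and 3913 units in the cystic ovary, against 1704 and 1444 units in the wild types. The cystic ovary had the highest level of the 9 arrays, and the luteoma was below both wild types. The difference was 4.68-fold. Ihh, a ligand from granulosa to theca cells, read 55.0 units in the luteoma, under the floor, and 794 units in the cystic ovary, against 791 and 646 units in the wild types, a difference of at least 4.32-fold. Here the cystic ovary was level with the wild types and the luteoma was the lowest of the 9 arrays. Nnat, neuronatin, had that order among the hybrid arrays, with 246 units in the luteoma and 918 units in the cystic ovary, against 931 and 1131 units in the wild types.

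Inhibin and activin subunits separated by gene. Inha, the shared inhibin alpha subunit, read 12184 units in the luteoma and 25616 units in the cystic ovary, against 10402 and 13445 units in the wild types, a log2 difference of -1.07 at a brightness where the median of all probe sets was also below 0. Inhba and Inhbb, the beta subunits, read 1562 and 711 units in the luteoma and 1977 and 1331 units in the cystic ovary, below the 5891 and 5987 units of the wild type of 5 months and the 3689 and 5454 units of that of 2 months. Both subunits were thus low in both transgenic stages. Fst, which binds activin, had a difference of -0.49, Hsd17b1, which makes estradiol from estrone, one of -0.60, and Wt1, a transcription factor of granulosa and surface cells, one of -0.10. The sign of Inhba, Fst, Hsd17b1 and Wt1 turned without scaling, to 0.42, 0.27, 0.16 and 0.66. Gata4, a transcription factor of granulosa and theca cells, was among the 2 members higher, at 560 and 271 units, and both values lay below the wild types at 816 and 614 units.

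Genes of the oocyte were lower in the luteoma without exception among those measured. The list had 9 measured genes, all with a difference below 0, 7 of them at least 1.5-fold and 3 called (Tcl1, Bcl2l10 and Zp2), with a median of -0.83 against -0.15 between the wild types. Zp2, a protein of the zona pellucida around the oocyte, read 669 units in the luteoma and 2108 units in the cystic ovary, against 1977 and 2595 units in the wild types. Bcl2l10, a BCL2 family member enriched in oocytes, read 744 and 2501 units, against 2514 and 2960 units. Gdf9, the growth factor by which the oocyte acts on granulosa cells, read 1865 and 3312 units, against 3243 and 3494 units, and Zp3 read 460 and 979 units, against 1670 and 1786 units. The cystic ovary was close to the wild types in Zp2, Bcl2l10 and Gdf9, and the luteoma was below all 3 hybrid arrays in each. The summed level of the 9 genes was 7571 units in the luteoma and 14709 units in the cystic ovary, against 13893 and 15856 units in the wild types. It was also low in the CF-1 tumour (4644 units), the hCG luteoma (6390 units) and the CF-1 wild type of 5 months (5985 units), and 2 of these share the control profile of the luteoma array. The part of that profile in the oocyte difference was not tested.

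**Figure D2:**
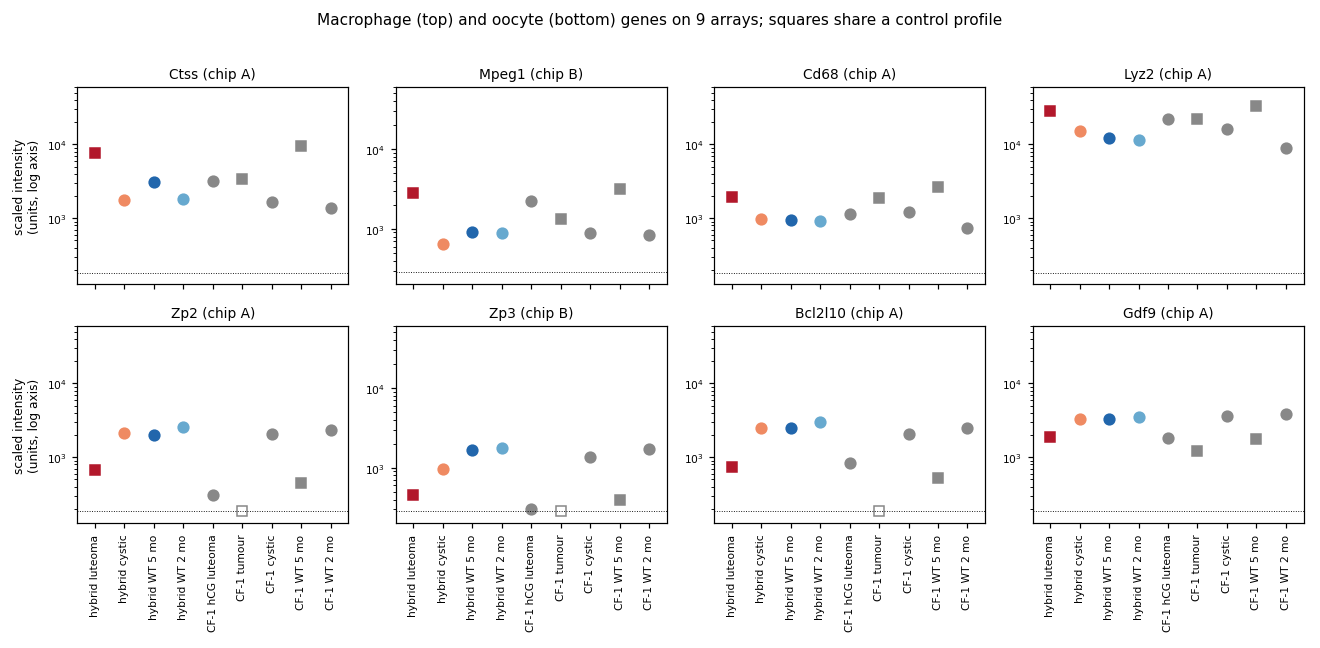
Scaled intensity (log axis) of 4 macrophage genes (upper row) and 4 oocyte genes (lower row) on 9 arrays, 1 point per array, squares for the 3 arrays that share a control profile and open points for arrays under the floor (dotted line). Ctss was highest in the CF-1 wild type of 5 months at 9627 units, with the hybrid luteoma next at 7570 units, and Zp2 was lower in the luteoma, at 669 units, than in the other 3 hybrid arrays.

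Dividing-cell genes were mostly lower in the luteoma. Of 28 measured, 23 had a difference below 0, 12 were at least 1.5-fold lower and 1 (Ccne1, a cyclin of entry into DNA replication) at least 1.5-fold higher. Over all named genes 15.9% were at least 1.5-fold lower and 14.4% higher. The median of the list was -0.50, and -0.05 between the wild types. The mitotic kinases were the called members. Aurka read 289 units in the luteoma and 1002 units in the cystic ovary, against 807 and 919 units in the wild types. Aurkb read 22 units, under the floor, and 587 units, against 420 and 584 units, a difference of at least 3.19-fold. Prc1, which bundles microtubules when cells divide, was outside the list and read 127 and 987 units, against 908 and 1016 units. In these 3 genes the cystic ovary lay near the wild types and the luteoma below them. Mki67, the proliferation antigen, read 1030 and 1799 units, against 1937 and 2038 units, and Ccna2, cyclin A2, read 759 and 1317 units, against 1601 and 1203 units. Ccnd2, the cyclin D of granulosa cells, and Cdkn1b, a cyclin kinase inhibitor that rises with luteinization, differed by 0.19 and 0.23. Aurka, Aurkb and Prc1 were also low in the CF-1 wild type of 5 months, at 353, 17.8 and 99.0 units, and in the hCG luteoma, at 527, 162 and 264 units. In the CF-1 tumour they read 549, 184 and 468 units. The tumour and this CF-1 wild type share the control profile of the luteoma array. In 3 of the 28 listed genes all 3 arrays of the profile lay below the other 6, against 10.1% of all tested. The part of the profile was not tested.

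Genes of steroid synthesis and of the corpus luteum did not pass the 3-fold rule in either direction on the probe sets of the lists. Star, Cyp11a1 and Ptgfr, which mark luteal cells, were far above the detection limit at both stages and did not set the ovary labelled a luteoma apart from the cystic one. The 12 steroid synthesis genes had a median of -0.44, with 5 at least 1.5-fold lower and 0 at least 1.5-fold higher, and -0.25 between the wild types. That median was 0.06 without scaling. Star, which brings cholesterol into mitochondria, read 12108 units in the luteoma and 17509 units in the cystic ovary, against 11263 and 15776 units in the wild types. Cyp11a1, which makes pregnenolone from cholesterol, read 23382 and 29690 units, against 13544 and 17624 units, so that both transgenic stages lay above the wild type of their age. The difference of Cyp11a1, -0.34, turned to 0.16 with quantile normalization. Hsd3b1, a 3-beta-hydroxysteroid dehydrogenase of progesterone synthesis, read 1664 and 3209 units, against 3612 units in the wild type of 5 months and 16166 units in that of 2 months. It was therefore far lower in both transgenic stages than in the younger wild type. It read 22428 units in the CF-1 cystic ovary and 39328 units in the hCG luteoma. Cyp17a1, which leads to androgens and is the theca enzyme of the ovary, went the other way with 9578 and 6703 units, against 4373 and 6784 units. The difference of Cyp17a1 was 0.51, and the luteoma had the highest level of the 9 arrays.

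The 9 luteal and LH response genes had a median of -0.02, with 3 at least 1.5-fold lower and 0 higher. Ptgfr, the receptor through which prostaglandin F2 alpha ends the life of the corpus luteum, read 11299 and 7675 units, against 7952 and 10414 units in the wild types. Rgs2, a regulator of G protein signalling induced by LH, read 4713 and 9350 units, against 9581 and 12747 units. Nr5a2 and Nr5a1, the nuclear receptors LRH-1 and SF-1 that act on steroid genes, differed by -0.02, whose sign turned under every other scaling, and by 0.58. Of the 34 genes of steroid, luteal and follicle function looked up by name, 22 were tested, 1 (Ptgs2) was on a chip below the filter and 11, among them Cyp19a1, Lhcgr and Fshr, had no probe set of that single symbol.

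**Figure D3:**
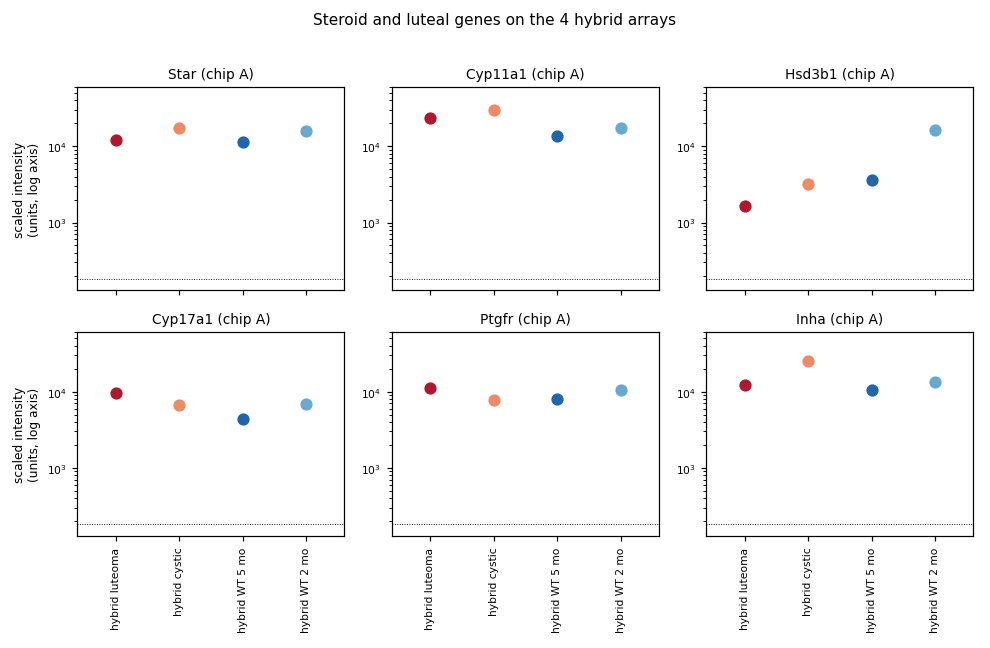
Scaled intensity (log axis) of 6 steroid, luteal and follicle genes on the 4 hybrid arrays of chip A, 1 point per array, with the floor as a dotted line. Luteoma and cystic ovary lie close together for Star, Cyp11a1, Cyp17a1 and Ptgfr, while Hsd3b1 separates the wild type of 2 months (16166 units) from the other 3 arrays.

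Cholesterol supply changed little as a group. The 8 synthesis genes had a median of 0.18 and the 10 genes of uptake and storage one of 0.00. Of the synthesis genes 5 were above 0 and 3 below, with 2 at least 1.5-fold higher and 1 lower, the lowest at -0.61. Their median turned to -0.03 with the mean over all probe sets of a gene. Of the uptake and storage genes 5 were above 0 and 5 below, with 2 at least 1.5-fold higher and 0 lower. Both stages were above the wild types in Sqle, an oxygenase of sterol synthesis, with 4555 and 3535 units, against 1343 and 2764 units. Mvd, an enzyme of the mevalonate pathway, read 1537 and 767 units, and lay under the floor in both hybrid wild types. Lrp1, a receptor for lipoprotein remnants, read 6602 units in the luteoma and 3045 units in the cystic ovary, against 2117 and 2344 units. Plin2, a coat protein of lipid droplets, read 6562 and 3606 units, against 3638 and 4305 units. Scarb1, the receptor that takes up cholesterol from high-density lipoprotein, read 18191 and 26047 units, against 9442 and 12600 units.

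Macrophage and antigen presentation genes had the highest median of the 32 lists, 0.89, and 0.05 between the wild types. Of 17 measured, 16 had a difference above 0, 11 were at least 1.5-fold higher, 0 were at least 1.5-fold lower, and Lgals3, Ctss and Mpeg1 were called. Ctss, the lysosomal protease cathepsin S, read 7570 units in the luteoma and 1745 units in the cystic ovary, against 3128 and 1818 units in the wild types. Mpeg1, the pore-forming perforin-2 of macrophages, read 2848 and 647 units, against 906 and 880 units, and Lgals3, galectin-3, read 7477 and 2376 units, against 5874 and 3940 units. A second Lgals3 probe set, on chip A, went the opposite way with 24.8 and 491 units, against 171 and 354 units, a log2 difference of -1.42. Lyz2, lysozyme of myeloid cells, read 28289 and 15223 units, against 12158 and 11597 units. On the probe sets of the list the luteoma lay above all 3 other hybrid arrays in these 4 genes. Class II genes had another order, with H2-Aa at 3947 and 2114 units, against 6088 and 6136 units in the wild types, so that both transgenic stages were below them. The summed level of the list was 78044 units in the luteoma and 40572 units in the cystic ovary, against 49774 and 45687 units in the wild types, and 115219 units in the CF-1 wild type of 5 months. In 5 of the 17 genes all 3 arrays of the control profile lay above the other 6, against 8.35% of all tested probe sets. In 1 of the 17 the luteoma lay above both other arrays of the profile. The part of the profile was not tested. The 5 mast cell genes had a median of 0.08, with Cpa3, a carboxypeptidase of mast cells, at 645 units in the luteoma and below 0 in the cystic ovary and both wild types, and Tpsab1, a tryptase, at 2167 and 1043 units, against 1871 and 1525 units.

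The 9 endothelial genes measured had a median of 0.65, with 5 at least 1.5-fold higher, 2 at least 1.5-fold lower and 0 called, and 0.05 between the wild types. Tie1, a receptor of vessel walls, read 2547 units in the luteoma and 1239 units in the cystic ovary, against 483 and 336 units in the wild types. Kdr, the main receptor for vascular endothelial growth factor, read 3357 and 1606 units, against 922 and 1168 units. Eng, endoglin, read 11920 and 8168 units, against 3315 and 4726 units, a difference of 0.55. These 3 genes share the order luteoma, cystic ovary, wild types. Members on the lower side were Selp, P-selectin, at 1019 and 2131 units, against 853 and 3059 units, and Cd34 at 837 and 1390 units, against 1337 and 791 units. The luteoma lay above both other arrays of its control profile in 8 of the 9 genes. By the same count it lay above both in 7 of 9 oocyte genes and 1 of 17 macrophage genes. No share over all tested probe sets stands beside these counts, so they do not set these lists apart. Among other lists they varied widely, with 6 of 8 cholesterol synthesis genes and 0 of 8 adipocyte genes. The summed level of the endothelial list in the luteoma, 24348 units, was the highest of the 9 arrays, with 17156 units in the cystic ovary and 9624 and 12719 units in the wild types.

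Lox was the called gene of the extracellular matrix and smooth muscle lists, on the lower side. Col4a4, outside these lists, and Mmp12, of the matrix protease list, were called higher. Of 30 extracellular matrix genes 8 were at least 1.5-fold lower and 3 higher, with a median of -0.26 and 0.20 between the wild types. The median was -0.05 with loess and turned to 0.26 without scaling and 0.25 at the spike-in level, so that the matrix list as a whole has no settled direction. Lox, which cross-links collagen and elastin, read 240 units in the luteoma and 729 units in the cystic ovary, against 644 and 329 units. Lama1, a laminin chain of basement membranes, read 792 and 1873 units, against 1910 and 2481 units, and Fbln1, fibulin-1, read 850 and 2076 units, against 2309 and 2494 units. Lum, lumican, was on the other side at 4317 and 2152 units, against 5354 and 2734 units. The 9 smooth muscle genes had a median of -0.62, with 5 at least 1.5-fold lower and 0 higher, among them Acta2, smooth muscle actin, at 12304 and 19982 units, against 20961 and 20303 units. Of the 19 measured genes of matrix proteases and inhibitors 8 were above 0 and 11 below. At least 1.5-fold, 3 were higher and 4 lower, the lowest at -1.24, so that the list had no common direction. Among the higher members Timp2, an inhibitor, read 826 units in the luteoma and a value below 0 in the cystic ovary. Mmp12, a macrophage metalloproteinase, read 1044 and 329 units.

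The brightest groups were lower in the luteoma, in the range where the median of all probe sets was below 0. The adult globins Hba-a1 and Hbb-b2 read 10591 and 9427 units in the luteoma against 47516 and 30496 units in the cystic ovary, with 18576 and 7685 units in the wild type of 5 months and 16996 and 8538 units in that of 2 months. Their differences of -2.17 and -1.69 compare with the median of -0.96 for probe sets of that brightness on chip B. Alas2, the heme synthesis enzyme of red cell precursors, was closer in both stages, at 2081 and 2443 units, against 306 and 485 units in the wild types. Of the 8 measured erythroid genes 5 were below 0 and 3 above. At least 1.5-fold, 3 were lower and 1 higher, the highest at 1.21. The erythroid median, below 0 as reported, turned to 0.49 without scaling and 0.45 at the spike-in level. All 38 ribosomal protein genes had a difference below 0, 26 of them at least 1.5-fold, with a median of -0.71. Their summed level was 535574 units in the luteoma, 909344 units in the cystic ovary and 538922 and 600593 units in the wild types. Among the 9 arrays the luteoma was the lowest and the cystic ovary the highest, with the hCG luteoma next to it at 814288 units. Gpx3, the secreted glutathione peroxidase, read 15358 and 38771 units, against 18770 and 18278 units, with the same order. Over the alternative scalings, floors and filters the ribosomal median stayed between -0.74 and -0.22, and the part of brightness in it was not tested.

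**Figure D4:**
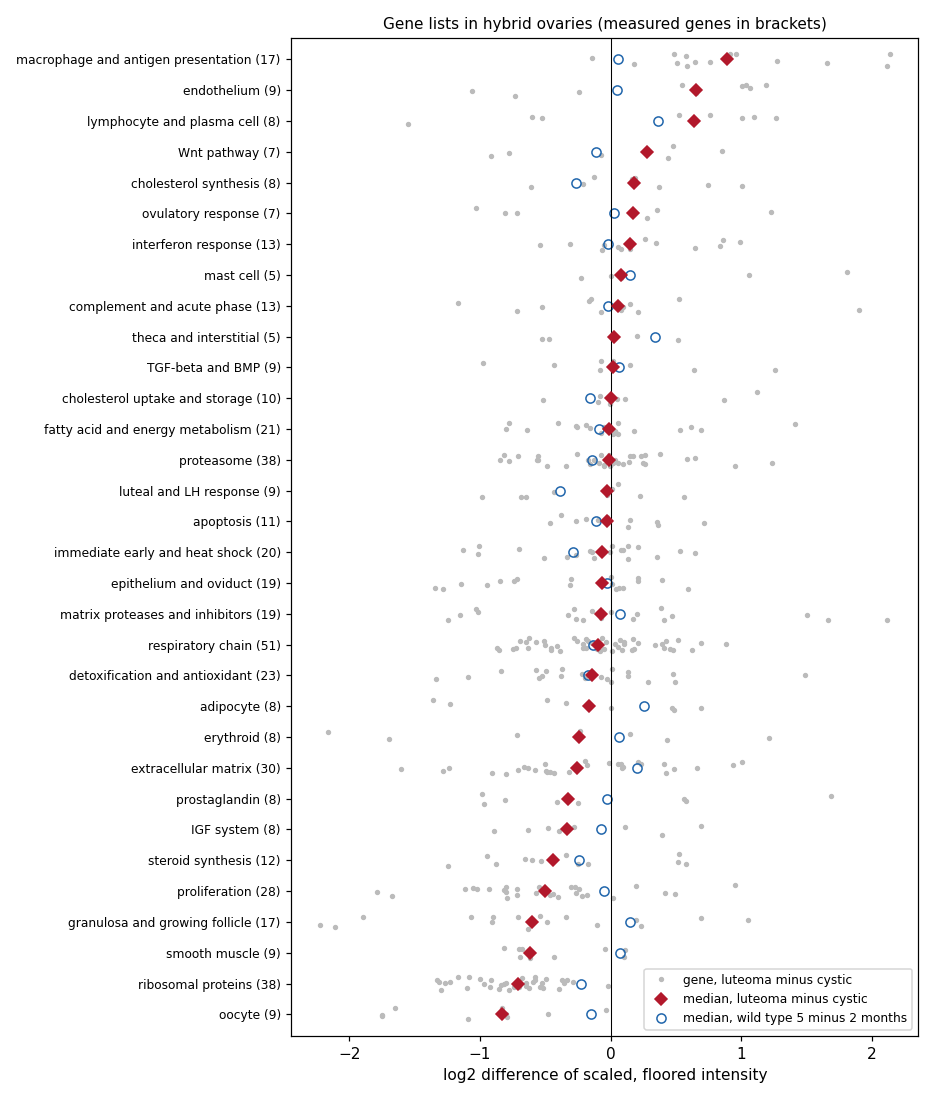
Log2 differences of the measured genes of 32 lists (grey points) with the median for luteoma minus cystic ovary (red diamonds) and for hybrid wild type 5 minus 2 months (open blue circles), 1 array a side. The medians for the luteoma run from -0.83 for oocyte genes to 0.89 for macrophage genes.

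Among the lower genes that belong to no list, Traf2, Nr2c2ap, Spr and U90926 were at least 2-fold below each of the other 8 arrays, as were 0.125% of all probe sets tested. Traf2, an adaptor of tumour necrosis factor receptors, read below 0 in the luteoma, 778 units in the cystic ovary, 2126 and 2210 units in the wild types and 1286 to 5942 units in the 5 CF-1 arrays. Its difference was at least 4.23-fold. Spr, sepiapterin reductase, read 284 and 1540 units on the called probe set, against 1422 and 1246 units, while a second probe set gave a difference of -0.19. Cyp2s1, a cytochrome P450, read 463 and 2650 units, against 1384 and 2144 units, and was at 557 and 761 units in the 2 CF-1 arrays of the same control profile. Apoa4, an apolipoprotein, and Kmt5c, a histone methyltransferase, gave the largest differences on the lower side, at least 8.17-fold and at least 14.7-fold. Kmt5c was above the floor only in the cystic ovary, the hCG luteoma and the CF-1 wild types, with 5275 units in the hCG luteoma, and a second Kmt5c probe set gave the opposite sign at 0.31, with 1273 and 1026 units, against 669 and 730 units in the wild types. Of 592 genes with several probe sets, 31 had a call, and in 23 of the 31 all probe sets had the same sign. In only 9 of the 31 did all probe sets differ at least 1.5-fold the same way. In 5 of the 31 probe sets of the gene differed beyond 1.5-fold in opposite directions.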

How the data were processed

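Levels of mouse ovary RNA were deposited as intensities on a linear scale, 1 value per probe set and array, with some values below 0. The software and scaling by which the authors made these intensity values are not given in the sources used here. Each array was scaled by its trimmed mean (percentiles 2 to 98) to the average of the 9 arrays of its chip type, raised to the floor and taken to log2. Probe sets at or above the detection limit on at least 2 of 9 arrays, without a missing value, were tested (4122 and 2286 for chips A and B), and 55 Affymetrix controls and 21 shared probe sets per chip were left out. Between 54.5% and 57.9% of values on chip A and 28.0% and 29.6% on chip B were at the detection limit, and the number of arrays limits the precision.

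Genes were named from platform annotation of single-symbol probe sets (5560 and 2001). Named genes were the 20 largest differences a side past the threshold, 34 key genes, called list members and the 5 largest gaps of either array from the other 8. Lists used the probe set with the highest mean per gene, and called genes the brightest called probe set. Members, lists and the GC and TATA box searches were chosen with earlier results of these data known. Scaling, floor, log transform, fold, filter and chip type were varied. Computation used Python 3.11.15 with pandas 2.3.3.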

Additional observations from a re-analysis of the deposited data

Results flagged for a closer look

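In 11 of the 65 genes picked for naming that passed the 3-fold rule, the hybrid wild types moved at least 1.5-fold the opposite way. Called genes outside the 65 were not counted, and some of them, such as Ap2s1 and Oprd1, also moved so. Over all probe sets tested, 10.1% were at least 1.5-fold higher in the wild type of 5 months than in that of 2 months and 5.76% lower. The difference between the 2 changes was not tested, since each rests on 1 array a side. It is given as the change from cystic ovary to luteoma minus that of the wild types, on the log2 scale. It was positive for Fgf15 (5.34), Mphosph9 (3.93), Rxrb (3.77), Rgl1 (3.69), Ptgds (3.55), Hp (2.96) and Krt17 (2.89), and negative for Ifitm10 (-3.30), Slpi (-3.25), Ercc2 (-2.62) and Lox (-2.57). Fgf15, a growth factor, read 1155 units in the luteoma and 114 units in the cystic ovary, against a value below 0 and 1184 units in the wild types of 5 and 2 months. Slpi, an inhibitor of leukocyte proteases, read 411 and 1347 units, against 535 units and a value below 0.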

How the results depend on the processing

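No paired analysis was possible because each condition has 1 array per chip type. Counts at least 3-fold higher and lower, 104 and 100 as reported, were 130 and 76 with median scaling, 111 and 85 with quantile normalization, 120 and 83 with loess and 109 and 105 with all probe sets. They were 295 and 30 without scaling, 330 and 34 at the spike-in level (chosen after seeing the data), 250 and 286 with the floor halved, 39 and 37 with it doubled, 856 and 931 with a floor of 20 units, and 65 and 57 with log2(value + floor). A 2-fold rule gave 370 and 439, a 5-fold rule 15 and 14, a detection limit of 4 floors 59 and 60, chip A alone 52 and 61, chip B alone 52 and 39. Requiring 2-fold beyond both other arrays of the control profile, also chosen after seeing the data, gave 17 and 14. The median over all probe sets shifted to 0.41 without scaling and 0.38 at the spike-in level. The granulosa list reversed there, to 0.053 and 0.036, and other list medians moved to 0.33 and 0.31 (IGF system), 0.49 and 0.45 (erythroid), and 1.31 and 1.27 (endothelium). At the spike-in level the mast cell list moved to 0.75. With a floor of 20 units the ovulatory list moved to -0.46 and the lymphocyte list to 0.00, which it also reached with all probe sets. The causes were not tested. Of the 65 genes picked for naming that passed the 3-fold rule 0 changed sign under any setting. Of the other 19 genes picked for naming 6 did (Cyp11a1, Fst, Hsd17b1, Inhba, Nr5a2 and Wt1). The 65 were chosen for differences of at least 3-fold, which exceed the shifts of level between settings. Their kept sign was therefore built in and is no measure of stability. The median of 21 of 32 lists changed sign under some setting, that of 16 without scaling or at the spike-in level. Macrophage genes ranged from 0.69 to 1.27 and oocyte genes from -1.09 to -0.47.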

Other observations

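The medians of lists not yet given were -0.34 for the IGF system, -0.33 for prostaglandin genes, -0.17 for adipocyte genes, -0.14 for detoxification and antioxidant genes, -0.10 for the respiratory chain, -0.08 for matrix proteases and inhibitors, -0.07 for epithelium and oviduct, -0.06 for immediate early with heat shock genes, -0.03 for apoptosis, -0.01 for the proteasome and for fatty acid and energy metabolism. They were 0.02 for TGF-beta and BMP, 0.03 for theca and interstitial genes, 0.06 for complement and acute phase genes, 0.15 for interferon response genes, 0.17 for ovulatory genes, 0.27 for the Wnt pathway, 0.64 for lymphocyte and plasma cell genes and -0.25 for erythroid genes. Among their members Bmp6, a bone morphogenetic protein, read 1277 units in the luteoma and 533 units in the cystic ovary, against 494 and 488 units in the wild types of 5 and 2 months. Ptges, which makes prostaglandin E2, read 682 and 1349 units, against 1081 and 997 units, and Hpgd, which inactivates prostaglandins, read 708 and 1243 units, against 1363 and 1372 units. Of the adipocyte markers, Adipoq read 235 and 329 units, against 2156 and 1656 units, so that both transgenic stages were low.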
